A study of Mus musculus with 3 samples.

Results

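The single-cell RNA sequencing data set holds 1 library of CD45+ cells from KP1 tumors treated with the 10/2-Trikine and 1 library from tumors treated with the 10/2-Trikine and an antibody against PD-1, and the comparison of these 2 libraries is described here in 4 cell lineages. Cells were assigned by their raw UMIs, which are counts of single mRNA molecules. T cells had at least 2 UMIs of Cd3d, Cd3e and Cd3g together, and NK cells had at least 1 UMI of Ncr1 and none of Cd3. C1q macrophages had at least 5 UMIs of C1qa, C1qb and C1qc together without Cd3, and monocytes had at least 2 UMIs of Chil3 and F13a1 together, fewer than 5 of C1q and none of Cd3. The 4 lineages held 38046 of the 49674 cells kept in these 2 libraries, and 71909 cells were kept in the whole series. The question was which genes moved in all 4 lineages when anti-PD-1 was added, and which moved in 1 lineage only.

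All mice were wild-type B6129SF1/J hybrids that carried subcutaneous tumors after injection of 500000 KP1 cells, a murine line of small-cell lung cancer. The 10/2-Trikine is an engineered IL-10 that also recruits the beta chain of the IL-2 receptor, and it was given intraperitoneally at 3 µg on alternate days, first on day 7 and last on day 19. By the sample titles and treatment labels, the combination group alone also received the anti-PD-1 antibody, 200 µg on day 7 and again on days 11, 15 and 19. The protocol wording could also be read as anti-PD-1 for every group, in which case the comparison would not measure PD-1 blockade. Another library, from mice given mono-IL-10, an engineered IL-10 that lacks the added receptor arm, is shown for its levels only. Tumors were collected on day 19, and live CD45+ cells were sorted after density separation, although the labels call the samples T cells. The labels do not state how many mice stand behind each library. With 1 library per group there was no replicate, so no test was possible, and the treatment cannot be told apart from any other difference between the 2 libraries. The 95% intervals given here cover counting error only.

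PD-1 is an inhibitory receptor of activated T cells, and antibodies that block it release T cells that have met antigen in a tumor. Such T cells secrete interferon-gamma, which signals through JAK kinases in nearly every cell type. Among the best known targets of this pathway are 2 families of large GTPases that defend cells against intracellular microbes, the guanylate-binding proteins (Gbp genes) and the immunity-related GTPases (such as Igtp, Iigp1 and Irgm1).

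The genes that moved in all 4 lineages belonged to these families. Of 2532 genes measured in every lineage, 5 were at least 1.5-fold higher in the combination in each lineage (0.197% of the genes tested), namely Iigp1, Gbp2, Gbp5, Igtp and Gbp2b. No gene was at least 1.5-fold lower in all 4 (0.0%). The nearest was Gm47283, an unnamed gene model with log2 ratios from -0.68 to -0.56, which passed in all 4 lineages under TMM scaling, and without cycling cells Cxcl2 did. A gene counted as measured in a lineage when it reached a CPM of 50 in 1 of the 2 libraries and a total of 50 UMIs over both, and as moved when its CPM differed at least 1.5-fold. CPM are the UMIs of a gene per 1000000 UMIs, summed over all cells of a lineage in a library. Because the minimum applied to the higher of the 2 libraries, a gene could pass it through the library in which it was high, and 6 of the 20 values of the 5 genes passed through the combination alone (Iigp1 and Gbp2b in T and NK cells, Gbp5 in T cells and Igtp in NK cells). With the minimum on the mean of both libraries, chosen after seeing the data, 3 genes were higher in all 4 lineages, Gbp2, Gbp5 and Igtp. A sum of UMIs over cells cannot separate more expressing cells from more RNA per cell. Another 7 genes were higher in 3 lineages and 11 in 2, whereas 119 were higher in 1 lineage and 29 were lower in 1.

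The promoters of the shared genes are shown because these genes moved together and because the interferon pathway acts through short DNA elements near such starts. RefSeq promoter windows are shown for 4 of the 5 genes, and Iigp1 was left out by the selection of windows. The 250 bases before the start are given on the + strand of GRCm38.p6, 5′ to 3′, with matches in capitals to the gamma-activated site TTCNNNGAA or to the core of the interferon-stimulated response element, GAAANNGAA, on either strand.
Gbp2, chr3:142620413-142620662: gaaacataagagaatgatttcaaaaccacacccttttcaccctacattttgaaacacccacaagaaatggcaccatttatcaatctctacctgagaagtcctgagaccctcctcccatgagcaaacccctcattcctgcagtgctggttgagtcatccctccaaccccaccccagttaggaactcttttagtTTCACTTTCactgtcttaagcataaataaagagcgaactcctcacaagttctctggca
Gbp5, chr3:142496684-142496933: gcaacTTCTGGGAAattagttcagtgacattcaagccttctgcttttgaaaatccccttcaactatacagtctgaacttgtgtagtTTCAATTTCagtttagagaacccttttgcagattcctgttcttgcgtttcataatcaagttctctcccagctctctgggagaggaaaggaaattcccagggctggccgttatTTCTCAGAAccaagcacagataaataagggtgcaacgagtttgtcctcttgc
Igtp, chr11:58199306-58199555: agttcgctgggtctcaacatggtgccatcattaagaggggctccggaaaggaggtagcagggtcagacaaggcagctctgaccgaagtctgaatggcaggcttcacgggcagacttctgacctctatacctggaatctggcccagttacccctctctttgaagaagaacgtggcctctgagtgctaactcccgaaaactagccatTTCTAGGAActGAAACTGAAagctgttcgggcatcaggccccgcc
Gbp2b, chr3:142594597-142594846: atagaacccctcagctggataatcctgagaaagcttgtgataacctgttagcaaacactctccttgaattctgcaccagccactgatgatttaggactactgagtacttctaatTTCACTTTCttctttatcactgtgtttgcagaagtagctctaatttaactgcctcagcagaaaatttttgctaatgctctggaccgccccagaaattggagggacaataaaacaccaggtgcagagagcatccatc
Each of the 4 windows held 1 match to the response element core, which starts 58 bases before the start in Gbp2, 164 in Gbp5, 34 in Igtp and 136 in Gbp2b. The gamma-activated site matched at 2 places in Gbp5, 245 and 52 bases before the start, and at 1 place in Igtp, 45 bases before it. The 2 matches in Igtp do not overlap. In Gbp2 and Gbp2b these letters of the gamma-activated site were not in the window. Of 32851 promoter windows of the same length from 27025 genes, 7.02% held a gamma-activated site match, 7.13% held a response element core and 13.4% held either. A match describes the sequence and does not show that a factor binds there.

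The libraries differed in composition before any gene was compared. They held 197176873 UMIs (10/2-Trikine) and 175794959 UMIs (combination), with 22707 and 26967 kept cells and a median of 5562 and 4273 UMIs per cell. T cells were 63.84% of kept cells in the 10/2-Trikine library and 52.37% in the combination (14496 and 14123 cells), a ratio of shares of 0.820 (0.808 to 0.833). C1q macrophages were 8.416% and 15.36% (1911 and 4143 cells), a ratio of 1.83 (1.73 to 1.92). NK cells were 4.144% and 4.617% (941 and 1245 cells), and monocytes were 3.166% and 2.277% (719 and 614 cells). Marker genes that the assignment did not use separated the lineages to different degrees. Summed T cell markers were 4901 and 5996 CPM in T cells against 86.38 and 102.5 CPM in monocytes, and summed NK markers were 24180 and 22960 CPM in NK cells against 9868 and 7683 CPM in T cells, 6992 and 7090 CPM in C1q macrophages and 6612 and 8393 CPM in empty droplets. In C1q macrophages most of the NK marker sum came from Fcer1g (5019 and 5165 CPM) and Tyrobp (1565 and 1516 CPM). In T cells most of it came from Gzma (8037 and 5840 CPM). Summed macrophage markers were 2254 and 2390 CPM in C1q macrophages against 1343 and 1335 CPM in monocytes. The T cell marker sum in NK cells was 2045 and 2057 CPM, while Trac, the T cell receptor alpha constant gene, was at 33.22 and 36.87 CPM there against 886.8 and 1122 CPM in T cells. The 2 libraries shared 180 cell barcodes, 0.793% and 0.667% of their cells.

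Some barcodes carried transcripts of a second lineage. In NK cells, 39 barcodes (4.145%) of the 10/2-Trikine library and 107 (8.594%) of the combination also passed a C1q or a Chil3 and F13a1 threshold, and in T cells 1428 (9.85%) and 1324 (9.375%) did. In C1q macrophages 33 (1.727%) and 97 (2.341%) barcodes carried Ncr1, and in monocytes 6 (0.8345%) and 10 (1.629%) did. The 39 and 107 mixed NK barcodes were summed into NK cells and also into C1q macrophages or monocytes. These lineages are therefore not fully separate sets of cells. These mixed barcodes were kept, and the values that move most without them are given again. Cells with an Mki67 or Top2a UMI, called cycling cells here for short, were 58.82% and 46.47% of T cells, 33.37% and 25.38% of NK cells, 40.82% and 35.51% of C1q macrophages and 15.02% and 11.24% of monocytes. Such a share depends on depth and on free RNA, and in T cells the median depth was 7061 and 5095 UMIs per cell. With every cell thinned to 2000 UMIs, a setting chosen after seeing the data that left out 830 and 933 shallower T cells, 75 and 98 NK cells, 92 and 381 C1q macrophages and 24 and 40 monocytes, the shares were 48.68% and 33.61%, 26.14% and 17.75%, 29.24% and 24.56%, and 5.773% and 3.838%. They were thus lower in the combination in each lineage also at equal depth, but no intervals were computed for these shares. In monocytes, with 719 and 614 cells before thinning, they rest on few cells. The part of free RNA in the shares was not tested.

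Iigp1 showed the largest shared difference. In T cells it was at 30.76 CPM with the 10/2-Trikine and 66.58 CPM in the combination, a 2.16-fold difference (2.09 to 2.25). In monocytes it was at 330.4 and 817.5 CPM, and in C1q macrophages at 108.7 and 210.7 CPM. Iigp1 encodes an immunity-related GTPase that attacks the membranes around parasites. Its NK cell values were 17.63 and 51.4 CPM, from 86 and 283 UMIs, so the ratio there had the widest interval (2.28 to 3.75).

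Gbp2, Gbp2b and Gbp5 encode guanylate-binding proteins that assemble on pathogen membranes, and Gbp5 also promotes inflammasome assembly. Gbp2 was at 62.52 and 110.9 CPM in T cells, 57.0 and 99.54 CPM in NK cells, 207.3 and 340.2 CPM in C1q macrophages and 361.9 and 726.8 CPM in monocytes. Gbp5 moved most in NK cells, with 82.22 and 192.5 CPM (2.34-fold, 2.09 to 2.63), and by 1.58-fold (1.53 to 1.64) in T cells. Gbp2b was at 198.0 and 433.7 CPM in monocytes and at 161.5 and 244.9 CPM in C1q macrophages, where its ratio of 1.52 was the closest of all 20 values to the threshold.

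Igtp, which encodes a GTPase that regulates the effector members of its family, was at 75.46 and 153.1 CPM in T cells, a ratio of 2.03 (1.98 to 2.08). In monocytes it was at 136.1 and 271.0 CPM and in C1q macrophages at 113.4 and 176.6 CPM. In the mono-IL-10 library the T cell level of Igtp was 110.6 CPM and the monocyte level 138.6 CPM. The T cell levels of all 5 genes in the mono-IL-10 library lay between those of the other 2 libraries, with Iigp1 at 41.57, Gbp2 at 95.87, Gbp5 at 58.31 and Gbp2b at 57.3 CPM. The plot of the shared genes by lineage shows these levels.

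**Figure D1:**
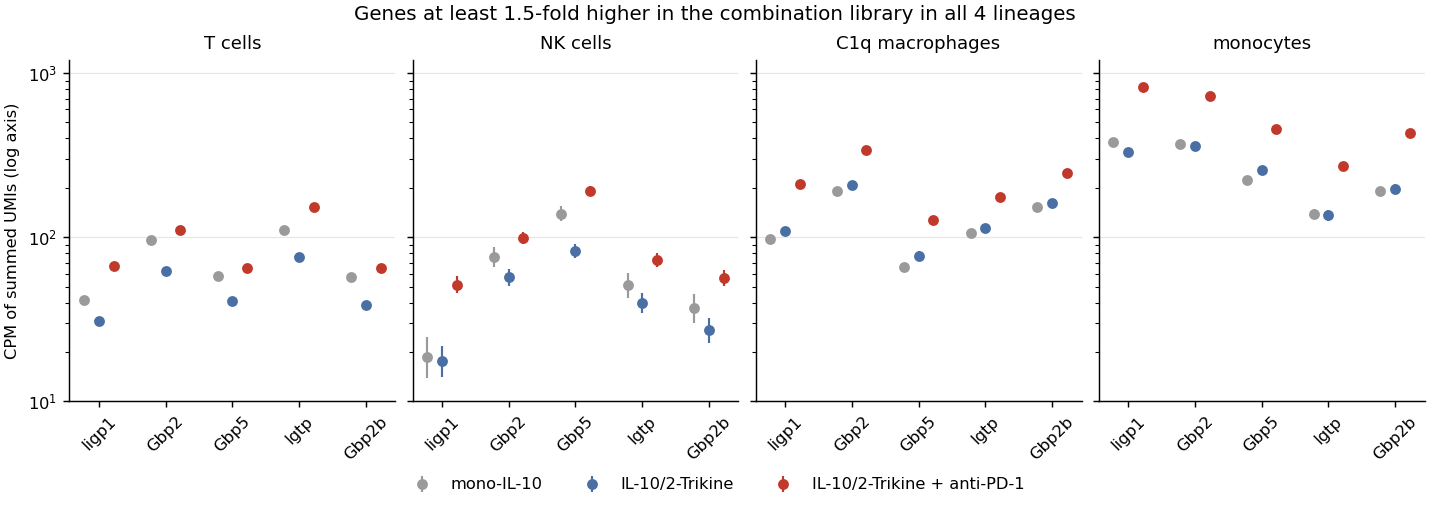
CPM of summed UMIs on a log axis for the 5 genes at least 1.5-fold higher in the combination library in all 4 lineages, with 1 panel per lineage, 1 point per library and 95% counting intervals that are often smaller than the point. The combination library (red) lies above the 10/2-Trikine library (blue) for every gene in every panel, and Iigp1 in monocytes spans the range from 330.4 to 817.5 CPM.

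The shared genes were also higher outside the 4 lineages. In the kept cells that no lineage claimed, 4679 and 6949 cells, the log2 ratio was between 0.68 for Igtp and 0.86 for Gbp2b. In empty droplets, which hold free RNA, it was between 0.41 for Gbp5 and 1.35 for Iigp1. Free RNA was estimated at 7.198% and 3.671% of the UMIs of T cells and at 5.712% and 6.365% of those of NK cells, and its part in the NK cell values was not tested beyond the subtraction described in the closing section. Just below the threshold lay Ccl5, with a lowest log2 ratio of 0.56 over the lineages, followed by Gbp3 and Marchf3 at 0.48, Rnf213 at 0.47 and Nlrc5 at 0.45. The shared genes had lowest log2 ratios between 0.60 for Gbp2b and 0.96 for Iigp1. Without mixed barcodes Gbp2, Gbp5 and Igtp remained and Ccl5 joined them, while Iigp1 and Gbp2b reached 24.91 and 42.09 CPM in NK cells, under the minimum, with log2 ratios of 1.22 and 1.02 there. Iigp1 also lost its call, being measured in 3 lineages, when free RNA was subtracted, where Lars2 joined the other 4 genes. TMM scaling, a scaling factor from the bulk of the genes, took Gbp5 to a log2 ratio of 0.58 in T cells, below the threshold. Without cycling cells 2 genes, Iigp1 and Gbp2, were past the threshold in all 4 lineages, and with the mean CPM per cell 2 genes, Gbp5 and Marchf3.

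Interferon-gamma response genes were among those higher in each lineage, with the largest count in monocytes. Of a list of interferon-gamma response genes, 8 of 17 measured members were at least 1.5-fold higher in T cells, 8 of 16 in NK cells, 9 of 21 in C1q macrophages and 17 of 23 in monocytes, and none was lower. Of the members called, 4, 3, 0 and 4 passed the minimum through the combination alone, and with the minimum on the mean of both libraries the counts were 6 of 15, 6 of 14, 9 of 20 and 16 of 22. Without mixed barcodes these counts were 8 of 16, 7 of 15, 9 of 21 and 17 of 23. The median log2 ratio of the list was 0.53, 0.58, 0.52 and 0.77 in this order, where the median of all measured genes was 0.033, 0.016, -0.008 and 0.009. Over all measured genes, 2.0% were higher in T cells, 5.02% in NK cells, 0.628% in C1q macrophages and 1.74% in monocytes. Since 4 of the 5 shared genes stand on the list, its counts are not independent of them.

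Beyond the shared GTPases, Irgm1, whose product controls the membranes on which the other GTPases act, was at 223.3 and 416.2 CPM in monocytes and 83.63 and 134.8 CPM in C1q macrophages. Cxcl9, a chemokine that draws T cells through CXCR3, was at 333.7 and 734.9 CPM in monocytes, a ratio of 2.20 (2.07 to 2.34), and 327.5 and 533.6 CPM in C1q macrophages. Cxcl10, which binds the same receptor, was at 1600 and 2893 CPM in monocytes, 285.6 and 444.7 CPM in C1q macrophages and 83.45 and 172.7 CPM in NK cells. In T cells Cxcl10 was at 101.2 and 109.3 CPM, a ratio of 1.08. Thus both chemokines moved in the myeloid lineages, and Cxcl10 in NK cells as well.

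Socs1, which encodes a feedback inhibitor of JAK kinases, was at 373.9 and 705.8 CPM in monocytes and 84.99 and 143.9 CPM in C1q macrophages, with a ratio of 1.32 in T cells and 1.05 in NK cells. Ciita, the master regulator of MHC class II genes, had log2 ratios of -0.22 in C1q macrophages and 0.23 in monocytes. Irf1, a transcription factor induced by interferon-gamma, stayed under the threshold in all lineages, with log2 ratios from 0.20 to 0.38. Cd274, which encodes the PD-1 ligand PD-L1, had log2 ratios of 0.37 in T cells, 0.56 in NK cells, 0.26 in C1q macrophages and 0.45 in monocytes, all below the threshold. The heat map of the list gives each value.

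**Figure D2:**
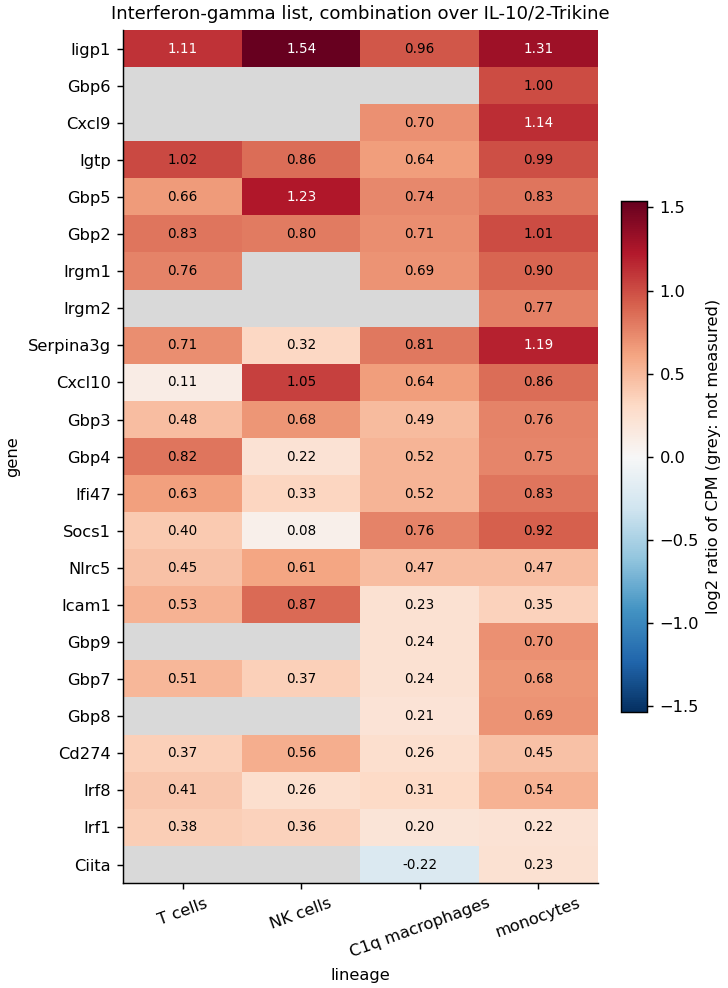
Heat map of the log2 ratio of CPM, combination over 10/2-Trikine, for the interferon-gamma list (rows, ordered by their mean) in the 4 lineages (columns), with grey for genes not measured in a lineage. Iigp1 is at the top with 1.11, 1.54, 0.96 and 1.31, and Ciita at the bottom has the single negative value, -0.22 in C1q macrophages.

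The interferon-gamma gene itself lay at the threshold in T cells. Ifng was at 145.9 and 221.7 CPM in T cells, a ratio of 1.52 (1.49 to 1.55), and at 68.89 and 59.03 CPM in NK cells, a ratio of 0.857 (0.733 to 1.0). Its T cell log2 ratio of 0.60 exceeded the threshold by less than the shift of TMM scaling (0.079) or of the median gene (0.033). Among T cells with Cd8 or Cd4 UMIs alone, described further on, the ratio was 0.836 and 1.48. Ifng stayed below 3 CPM in both myeloid lineages. Its receptor and kinases were measured beside it, and Ifngr1, the ligand-binding chain, had log2 ratios of 0.18, 0.20, -0.27 and -0.13 in T cells, NK cells, C1q macrophages and monocytes. Jak1 had log2 ratios from -0.03 to 0.13 and Jak2 from 0.09 in C1q macrophages to 0.55 in NK cells. None of these 3 genes reached 1.5-fold. Ifngr2, the other receptor chain, had log2 ratios of 0.02 in C1q macrophages and -0.18 in monocytes. It was under the minimum in both lymphocyte lineages, at 16.92 and 16.82 CPM in T cells and at 10.05 and 28.15 CPM in NK cells, a ratio of 2.80 (2.02 to 3.95) from 49 and 155 UMIs.

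Isg15, a ubiquitin-like protein induced by type I interferon, was higher in T cells (101.3 and 197.4 CPM), NK cells (85.91 and 176.4 CPM) and monocytes (394.4 and 728.9 CPM), with a ratio of 1.33 in C1q macrophages. On a list of interferon-alpha response genes, 3 of 11 measured members were higher in T cells, 2 of 9 in NK cells, 3 of 20 in C1q macrophages and 8 of 20 in monocytes, with medians of 0.45, 0.34, 0.36 and 0.51 and none lower. Over all measured genes, 2.0%, 5.02%, 0.628% and 1.74% were higher in this order. Some members passed the minimum through the combination alone. With the minimum on the mean of both libraries, chosen after seeing the data, the counts were 2 of 9, 2 of 8, 2 of 18 and 8 of 19. Genes of MHC class I presentation did not reach the threshold in any lineage, with medians of 0.25, 0.15, 0.09 and 0.15 over 17 to 20 measured genes.

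Ccl5, a chemokine of cytotoxic lymphocytes, reached the threshold in 3 lineages and narrowly missed it in the lineage with its highest level. It was at 2980 and 4987 CPM in T cells, at 240.9 and 459.9 CPM in C1q macrophages and at 97.77 and 235.9 CPM in monocytes. In NK cells it was at 9088 and 13430 CPM, a ratio of 1.48 (1.46 to 1.5). Serpina3g, a protease inhibitor induced by interferon, was higher in T cells, C1q macrophages and monocytes, with ratios of 1.64, 1.76 and 2.28. Gbp4 and Ifi47 moved in T cells and monocytes, and Gbp3 in NK cells and monocytes. Nothing was lower in 3 lineages. The 6 genes lower in 2 lineages were Ube2c, Hmgn2, Stmn1 and Tubb5 in NK cells and monocytes, and Egr1 and Gm47283 in C1q macrophages and monocytes, and these were picked out after their values were seen.

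T cells moved alone in 12 genes (0.474% of those measured in all lineages), 9 higher and 3 lower. Among all 3803 genes measured in T cells, 76 were higher and 44 lower (1.16%). That split depended on the scaling, since TMM scaling gave 47 higher and 87 lower, centring on the median gene 65 and 59, and the mean CPM per cell 77 and 75. Ccl4, a chemokine of activated T cells and macrophages, was at 526.8 and 913.9 CPM in T cells, a ratio of 1.74 (1.72 to 1.75), and at 1151 and 921.8 CPM in NK cells. The log2 difference to the nearest other lineage, monocytes, was 0.83 (0.74 to 0.93). Fosl2, an AP-1 transcription factor, was at 84.39 and 130.7 CPM, Entpd1, which encodes the ectonucleotidase CD39, at 102.6 and 157.5 CPM, and Tnfrsf1b, a TNF receptor, at 100.1 and 151.1 CPM. The latter 2 stood closer to NK cells, with log2 differences of 0.27 (0.10 to 0.43) and 0.25 (0.09 to 0.42).

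The 3 genes lower in T cells alone, Cst3, Cd14 and Lyz2, are myeloid genes. Lyz2, the lysozyme of macrophages and monocytes, was at 177.2 and 109.2 CPM in T cells against 9392 and 7512 CPM in monocytes, and Cd14, the endotoxin co-receptor, was at 66.58 and 40.99 CPM in T cells. Cst3, a protease inhibitor abundant in myeloid cells, was at 293.5 and 187.8 CPM. Beside these, the summed markers of monocytes in T cells were 1223 and 1037 CPM, with 0 of 4 measured markers moved, and those of macrophages 381.7 and 420.9 CPM. None of the 12 macrophage or 10 monocyte markers was at 0. Without mixed barcodes Lyz2 was at 33.04 and 17.13 CPM and Cst3 at 236.2 and 142.2 CPM. The estimated share of free RNA in T cells was smaller in the combination too (7.198% and 3.671%). Empty droplets went the other way, with a mean of 65.86 UMIs per droplet in the combination against 21.09 in the library compared with it. Why the estimate and the droplets differ in direction was not tested. After subtraction of the estimated free RNA the log2 ratios were -0.62 for Lyz2, -0.70 for Cd14 and -0.67 for Cst3. Without the 10% of cells with the highest doublet scores they were -0.37, -0.49 and -0.71, so that Lyz2 and Cd14 no longer passed the threshold.

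Several T cell genes could not be compared with other lineages because they were measured in T cells alone. Of 249 such genes, 16 were higher and 14 lower. Penk, which encodes the enkephalin precursor, was at 72.79 and 178.1 CPM, a ratio of 2.45 (2.39 to 2.5), and Cd200, an immunoregulatory surface glycoprotein, was at 32.58 and 68.11 CPM. Plk1 and Esco2, which act in mitosis and in sister chromatid cohesion, were lower, at 59.64 and 33.52 CPM and at 61.07 and 35.14 CPM. Without cycling cells both turned, with log2 ratios of 0.69 and 0.60.

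Inhibitory receptors of T cells moved in part. On a list of checkpoint receptors and ligands, 3 of 14 measured members were higher in T cells, where 2.0% of all measured genes were, with a median of 0.23. Pdcd1, which encodes PD-1 itself, was at 144.5 and 235.5 CPM, a ratio of 1.63 (1.6 to 1.66). Lag3, an inhibitory receptor for MHC class II, was at 98.14 and 181.3 CPM, and the other member was Cd200, which passed the minimum through the combination alone. Ctla4 and Havcr2 had ratios of 1.31 and 1.32 and stayed under the threshold, as did Cd160, whose ratio was 0.814.

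Some T cell cytokines and chemokines were higher in the combination. The counts here stand beside 2.0% of all measured genes higher and 1.16% lower in T cells. On the effector cytokine list 3 of 7 measured members were higher, namely Ifng, Il10 at 38.8 and 61.43 CPM and Csf1, the macrophage growth factor, at 37.22 and 74.98 CPM, and Il10 and Csf1 passed the minimum through the combination alone. On the chemokine list 5 of 7 were higher and 1 lower, with a median of 0.74. Cxcl13, described further on, passed the minimum through the combination alone and Cxcl2 through the 10/2-Trikine library alone. With the minimum on the mean of both libraries, 4 of 5 chemokines were higher and 0 lower. Ccl3, a chemokine of activated T cells and macrophages, was at 188.5 and 496.9 CPM, Xcl1, which draws cross-presenting dendritic cells, at 237.3 and 384.3 CPM, and Cxcl2, a neutrophil chemoattractant, at 61.72 and 15.41 CPM. Icos and Tnfrsf4, costimulatory receptors on the IL-2/STAT5 list, were at 259.2 and 398.0 CPM and at 178.7 and 297.4 CPM, the 2 members of 24 measured that moved. On the list of memory and exhaustion factors 1 of 15 moved, Maf, at 98.31 and 166.1 CPM. Of 10 measured cytotoxic granule genes none moved, with Gzma at 8037 and 5840 CPM.

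The T cell gate mixes CD4 and CD8 T cells, and its composition differed between the libraries. T cells with a Cd4 but no Cd8 UMI were 23.48% in the 10/2-Trikine library and 32.26% in the combination, and those with a Cd8 but no Cd4 UMI were 40.05% and 37.4%. Thinned to 2000 UMIs per cell, these shares were 15.68% and 24.87% and 35.81% and 35.28%. This split was chosen after values had been seen, and it leaves out T cells with neither or both transcripts. The shared GTPases had the larger ratios among Cd8 cells, where Iigp1 was at 19.13 and 52.84 CPM (2.76-fold, 2.55 to 2.99), against 45.57 and 72.84 CPM among Cd4 cells (1.6-fold, 1.51 to 1.70). Gbp2 had ratios of 2.19 among Cd8 and 1.36 among Cd4 cells, Gbp2b of 2.11 and 1.23, Gbp5 of 1.83 and 1.27, and Igtp of 2.34 and 1.69. Among Cd4 cells 3 of the 5 genes, Gbp2, Gbp5 and Gbp2b, were thus below the threshold.

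Ccl3 and Ccl4 showed the opposite order. Ccl3 was at 101.3 and 117.6 CPM among Cd8 cells and at 314.2 and 847.9 CPM among Cd4 cells, a ratio of 2.70 (2.64 to 2.75). Ccl4 had ratios of 1.33 and 1.97. Ifng was at 79.73 and 66.69 CPM among Cd8 cells and at 249.8 and 368.8 CPM among Cd4 cells, so its ratio of 1.52 over all T cells came with 0.836 among Cd8 and 1.48 among Cd4 cells. Lag3 and Penk had similar ratios in both, 1.82 and 1.86 for Lag3 and 1.94 and 1.92 for Penk. Among T cells without an Mki67 or Top2a UMI, Gbp5 and Gbp2b were at ratios of 1.47 and 1.48, while Iigp1 was at 1.79 and Ccl3 at 2.12.

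**Figure D3:**
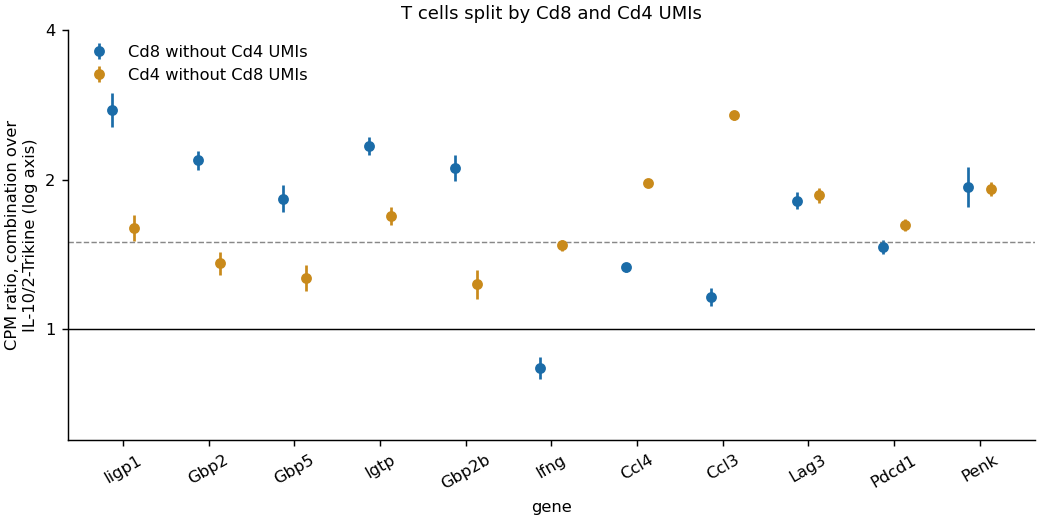
Ratio of CPM, combination over 10/2-Trikine, on a log axis for 11 genes in T cells with a Cd8 but no Cd4 UMI (blue) and with a Cd4 but no Cd8 UMI (ochre), with 95% counting intervals; the dashed line marks 1.5-fold. The 5 GTPase genes at the left are higher among Cd8 cells (Iigp1 at 2.76 against 1.6), whereas Ccl3 is higher among Cd4 cells (2.70 against 1.16).

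NK cells had by far the largest number of genes that moved alone, and part of it went with the mixed barcodes. In NK cells 111 genes moved alone (4.38%), 97 higher and 14 lower, and among all 3786 measured genes 190 were higher and 94 lower (2.48%). The 4 named by the gap to the other lineages were Atf3, Slc8a1, Cd86 and Basp1, all of them genes at 304.5 CPM or more in C1q macrophages in both libraries. Atf3, Slc8a1 and Cd86 passed the minimum through the combination alone. With the minimum on the mean of both libraries, chosen after seeing the data, 149 genes were higher and 72 lower among 3538. In that setting 96 moved in NK cells alone. Cd86, a costimulatory ligand of antigen-presenting cells, was at 23.99 and 65.03 CPM in NK cells, and without mixed barcodes at 6.925 and 21.69 CPM. Slc8a1, a sodium and calcium exchanger, was at 35.88 and 107.2 CPM, and without them at 12.06 and 44.67 CPM. Basp1 was at 71.56 and 188.0 CPM, and without them at 33.28 and 56.05 CPM. Atf3, a stress-induced transcription factor, was at 33.01 and 76.29 CPM, and without them at 15.86 and 21.9 CPM, a log2 ratio of 0.47 that is below the threshold.

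Macrophage transcripts moved in the same direction in NK cells. Of the 12 macrophage markers 3 were measured in NK cells and 2 of these were higher, with a sum of 540.3 and 702.8 CPM, or 459.1 and 480.8 CPM without mixed barcodes, and none at 0. All 8 measured genes of MHC class II presentation were higher in NK cells, where 5.02% of all measured genes were. Their median was 1.02, and without mixed barcodes 4 of 5 were higher, with a median of 0.71. Cd74, the class II invariant chain, was at 591.1 and 1254 CPM, and at 197.9 and 323.4 CPM without mixed barcodes. In T cells, C1q macrophages and monocytes none of the 8 moved. Without mixed barcodes 1 of 6 was lower in T cells, H2-Aa at 278.6 and 184.4 CPM, which was higher in NK cells in the same setting, at 138.9 and 216.2 CPM. In empty droplets the macrophage marker sum was 445.2 and 906.3 CPM, and the sum of the class II list was 4454 and 6926 CPM. The part of free RNA in these NK cell values was not tested beyond the subtraction.

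Leaving out the mixed barcodes gave 68 genes that moved in NK cells alone, 47 higher and 21 lower, and 50 of them were among the 111. Those picked out here were chosen after their values were seen. Cd69, an early activation marker, was at 236.3 and 419.8 CPM without mixed barcodes, a ratio of 1.78. Nfkb1, a subunit of the transcription factor NF-kappaB, was at 592.4 and 1022 CPM, and Nfkbiz, one of its nuclear regulators, at 273.9 and 502.5 CPM. Mir155hg, the host transcript of a microRNA induced by lymphocyte activation, was measured in NK cells alone, at 37.32 and 96.09 CPM with all barcodes and at 38.42 and 107.4 CPM without the mixed ones. Zbtb46, a transcription factor best known from dendritic cells, was measured in NK cells alone too, at 40.8 and 81.92 CPM, and made up most of the dendritic cell marker sum of 62.95 and 115.0 CPM. The next of these markers by level, Batf3, was at 8.817 and 16.17 CPM there. Mir155hg and Zbtb46 passed the minimum through the combination alone. Of 147 genes measured in NK cells alone, 10 were higher and 2 lower.

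**Figure D4:**
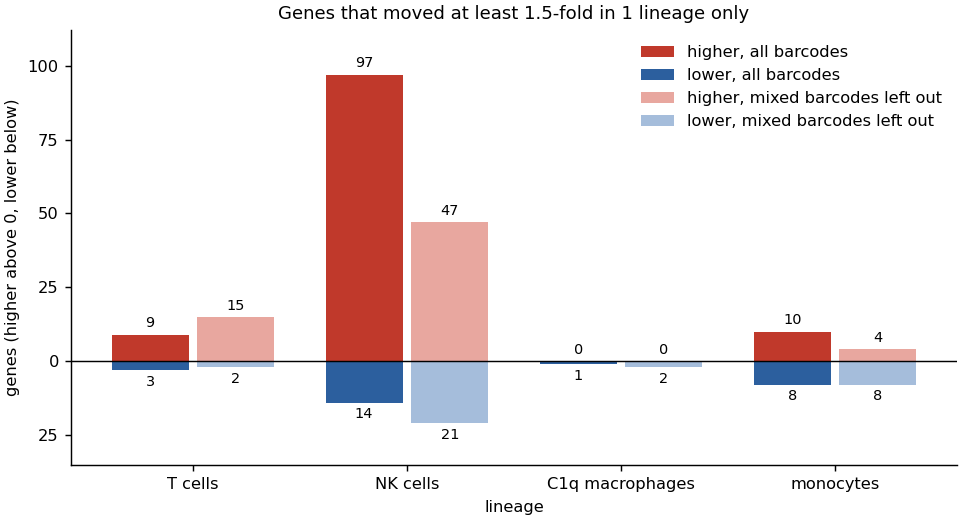
Bars give the number of genes at least 1.5-fold higher (above 0) or lower (below 0) in the combination in 1 lineage only, with all barcodes (dark) and with mixed barcodes left out (light). NK cells stand at 97 higher and 14 lower with all barcodes and at 47 and 21 without mixed ones, whereas C1q macrophages have at most 2 genes.

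Cell cycle genes were among the lower genes of NK cells. Over all measured genes, 2.48% were lower in NK cells, 1.16% in T cells, 0.377% in C1q macrophages and 0.971% in monocytes. On a list of S phase genes 18 of 27 measured members were lower, with a median of -0.74, and on a list of G2/M phase genes 20 of 33 were, with a median of -0.65. Rrm2, which makes deoxyribonucleotides, was at 157.3 and 79.38 CPM, and Hmmr, a mitotic spindle protein, at 53.52 and 24.16 CPM. In T cells 3 of 34 S phase and 10 of 38 G2/M phase members were lower, with medians of -0.43 and -0.51, and Birc5, the survivin gene, was at 343.7 and 208.2 CPM. In C1q macrophages 0 of 19 and 0 of 26 were lower, with medians of -0.19 in both. In monocytes 0 of 3 and 1 of 9 were lower, the 1 being Ube2c at 59.86 and 11.08 CPM. Hmmr in NK cells and Ube2c in monocytes passed the minimum through the 10/2-Trikine library alone. With the minimum on the mean of both libraries, 14 of 23 S phase and 18 of 29 G2/M phase members were lower in NK cells. In T cells 2 of 28 and 10 of 38 were then lower, and in monocytes 0 of 3 and 0 of 8. The smaller share of cells with an Mki67 or Top2a UMI stands beside these values, and without such cells the S phase medians were 0.13 in T cells and -0.33 in NK cells and the G2/M medians 0.04 and -0.09.

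Of the 14 genes lower in NK cells alone, the 4 named by the gap to the other lineages were H1f4, a linker histone, at 522.7 and 296.4 CPM, Ifitm1, an interferon-induced membrane protein, at 93.29 and 55.94 CPM, the mitochondrial ribosomal gene Mrps16 at 138.0 and 91.36 CPM and Idh3g, a subunit of an enzyme of the citric acid cycle, at 56.8 and 37.6 CPM. Without cycling cells Ifitm1 turned, with a log2 ratio of 0.45. The log2 difference of Idh3g to T cells was -0.31 (-0.58 to -0.05), near the edge of what the counts can separate. Nrgn and Ly9, measured in NK cells alone, were at 68.69 and 32.51 CPM and at 51.06 and 33.78 CPM. Cytotoxic granule genes did not move, with 0 of 11 measured members past the threshold and a median of 0.02.

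C1q macrophages had the smallest share of genes that moved, while their share of cells had the largest ratio (1.83). Of 3984 measured genes 25 were higher and 15 lower (0.377%), and 1 moved in these cells alone (0.0395%). That gene, Ppie, a prolyl isomerase, was at 96.83 and 64.24 CPM, and its log2 difference to monocytes was -0.03 (-0.34 to 0.29), so it was not separated from them. Among 340 genes measured in C1q macrophages alone 5 were higher and 3 lower. Ghr, the growth hormone receptor, was at 30.61 and 61.45 CPM, Mycl, a MYC family transcription factor, at 63.31 and 28.61 CPM, and Mmp12, the macrophage elastase, at 106.8 and 59.04 CPM. Tmem140 was at 37.71 and 64.45 CPM. Ghr and Tmem140 passed the minimum through the combination alone.

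In C1q macrophages 4 of 12 measured heat shock genes were higher, where 0.628% of all measured genes were, and the median of the list was 0.26. Hspa1a and Hspa1b, the inducible HSP70 genes, were at 66.32 and 140.2 CPM and at 58.85 and 134.4 CPM, and their near-identical sequences can share reads. Hsph1 and Bag3, a co-chaperone each, had ratios of 1.58 and 1.6. In monocytes, where 0.971% of all measured genes were lower, 1 of 9 was, Hspa1a at 55.31 and 33.7 CPM. There Hspa1a reached the minimum only in the library other than the combination. With the minimum on the mean of both libraries, 0 of 8 were lower in monocytes and 3 of 11 were higher in C1q macrophages. In T cells and NK cells none moved. Of 20 measured lipid and lysosome genes in C1q macrophages 2 were lower, where 0.377% of all measured genes were. These were Mmp12 and Mrc1, the mannose receptor, at 114.6 and 70.04 CPM. Arg1, arginase 1, was at 59.49 and 90.86 CPM, a ratio of 1.53 (1.40 to 1.67).

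Monocytes moved alone in 18 genes (0.711%), 10 higher and 8 lower, and among 3502 measured genes 61 were higher and 34 lower (0.971%). Pecam1, an adhesion molecule of leukocytes and endothelium, was at 37.7 and 77.32 CPM, Frmd4b at 31.9 and 57.47 CPM, and Dok2, an adaptor that dampens kinase signaling, at 50.33 and 76.17 CPM. Without mixed barcodes the log2 ratios were 1.08, 0.85 and 0.63, but Pecam1 and Frmd4b fell under 50 CPM in T cells, and Frmd4b in NK cells too, so that these 2 no longer counted as moved in monocytes alone. With all barcodes the same 2 genes passed the minimum in monocytes through the combination alone. Gzma, the granzyme A gene, was at 101.7 and 220.2 CPM in monocytes, and without mixed barcodes at 87.56 and 98.23 CPM, with a log2 ratio of 0.17. Summed NK markers in monocytes were 5614 and 5720 CPM with none of the 12 at 0. Most of this sum came from Fcer1g (3045 and 3111 CPM) and Tyrobp (2405 and 2284 CPM). All other markers except Txk were higher in the combination. Apart from Gzma these were under the minimum of 50 CPM in monocytes, among them Klra7 at 1.657 and 12.23 CPM, from 8 and 53 UMIs. Ero1a, an oxidase of the endoplasmic reticulum induced by low oxygen, was at 121.0 and 48.7 CPM and was the 1 of 19 measured glycolysis and hypoxia genes that moved.

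The remaining named genes lower in monocytes alone were Psip1, a chromatin reader, at 89.48 and 47.09 CPM, Rgs1, a brake on chemokine receptor signaling, at 82.85 and 44.32 CPM, and St8sia4, a sialyltransferase, at 96.11 and 57.7 CPM. The log2 ratio of Psip1, -0.93 with all barcodes, was 0.25 without cycling cells and -0.06 by the mean CPM per cell. Among 241 genes measured in monocytes alone 11 were higher and 10 lower. Gbp6, another guanylate-binding protein, was at 32.93 and 66.01 CPM, and Rsad2, an antiviral protein, at 36.46 and 71.55 CPM. Both passed the minimum through the combination alone. Cxcl3, a neutrophil chemoattractant, was at 55.51 and 5.54 CPM, and S100a9 was at 133.0 and 24.93 CPM.

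Some chemokine, acute-phase and neutrophil genes were lower in the myeloid lineages of the combination library, while other chemokine genes were higher. On the chemokine list 4 of 11 measured members were higher and 3 lower in monocytes. In C1q macrophages 3 of 13 were higher and 1 lower. With the minimum on the mean of both libraries, 4 of 10 chemokines were higher and 2 lower in monocytes. In C1q macrophages 3 of 12 were then higher and 1 lower. No measured effector cytokine moved in either lineage. Cxcl2 was at 942.7 and 289.7 CPM in monocytes and 420.6 and 173.8 CPM in C1q macrophages. Saa3, an acute-phase protein, was at 1136 and 511.5 CPM in monocytes and 190.7 and 68.43 CPM in C1q macrophages, and Lcn2, which binds siderophores, was at 101.9 and 52.39 CPM in monocytes. Saa3 and Lcn2 were the 2 of 21 measured monocyte and acute-phase genes that were lower in monocytes, with a list median of -0.13. In C1q macrophages 1 of 17 on this list was lower, Saa3, and 1 was higher, Arg1. Over all genes measured in monocytes 1.74% were higher and 0.971% lower, and over those measured in C1q macrophages 0.628% were higher and 0.377% lower. Of 10 neutrophil markers 6 were measured in monocytes and 3 were lower, S100a8 at 467.1 and 176.8 CPM, S100a9, and G0s2 at 66.7 and 16.62 CPM, with a marker sum of 1174 and 685.1 CPM in monocytes and 202.8 and 108.4 CPM in empty droplets. S100a9 and G0s2 passed the minimum through the 10/2-Trikine library alone. With the minimum on the mean of both libraries, 2 of 5 neutrophil markers were lower in monocytes. The part of neutrophil transcripts in the monocyte values was not tested.

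Few metabolic genes moved. Of 40 nuclear oxidative phosphorylation genes none moved in any lineage, with medians of -0.18, -0.30, -0.17 and -0.06 in T cells, NK cells, C1q macrophages and monocytes. Of 4 measured cholesterol and fatty acid synthesis genes 2 were lower in T cells, Idi1 and Fdps of the mevalonate pathway, at 84.09 and 50.45 CPM and at 78.13 and 49.2 CPM, and of 7 in monocytes 1 was, Msmo1. Over all measured genes 1.16% were lower in T cells and 0.971% in monocytes. STAT3 and SOCS feedback genes, a pathway that IL-10 activates, had 2 of 13 members higher in T cells, 1 of 15 in NK cells, 2 of 18 in C1q macrophages and 1 of 17 in monocytes, with medians of 0.30, 0.41, 0.07 and 0.08, where 2.0%, 5.02%, 0.628% and 1.74% of all measured genes were higher. In NK cells 1 of 15 is near the share of all genes. The T cell members were Il10 and Il21r, the IL-21 receptor gene, at 136.0 and 237.9 CPM.

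**Figure D5:**
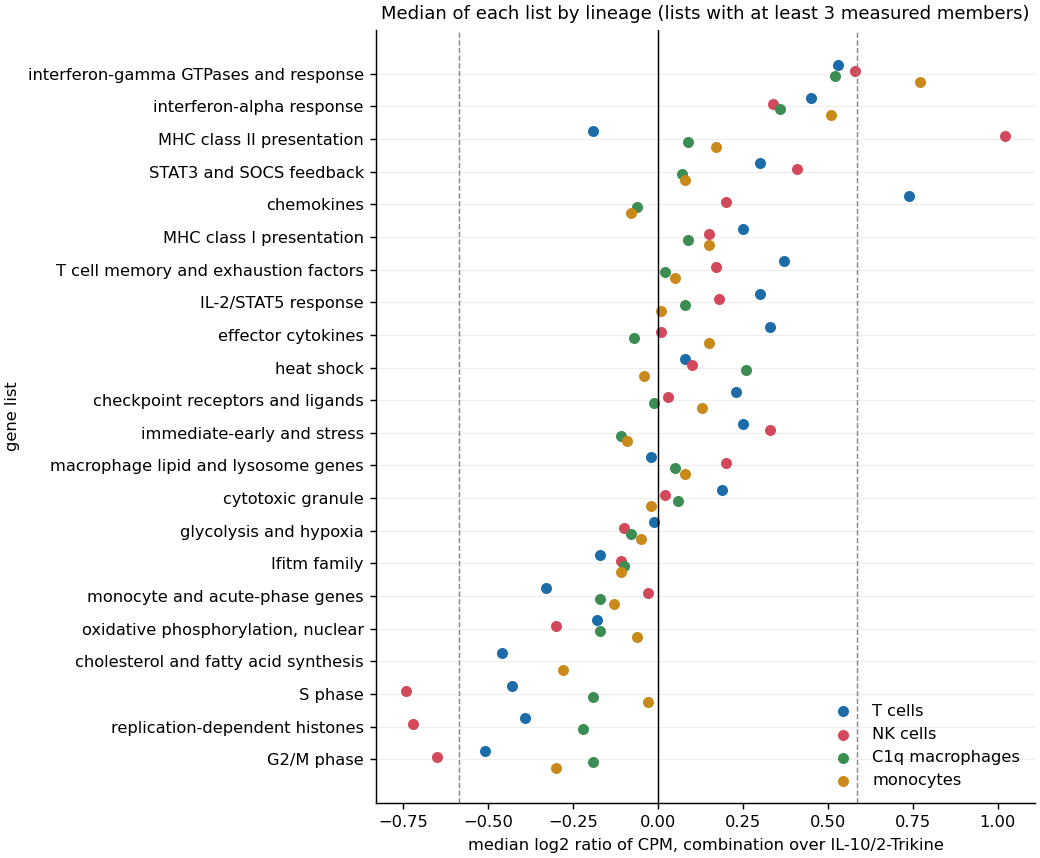
Median log2 ratio of CPM, combination over 10/2-Trikine, of each gene list with at least 3 measured members, with 1 point per lineage; dashed lines mark 1.5-fold. The interferon-gamma list lies between 0.52 and 0.77 in all 4 lineages, while the chemokine list lies farther right in T cells (0.74) and the MHC class II list in NK cells (1.02).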

How the data were processed

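Per the labels and file headers, the deposited files hold raw UMI counts per gene and barcode, made by the authors with Cell Ranger 8.0.0, the version in the headers (the methods name another), on a build given as mm10 in the submitters' notes and differently in the methods, so no gene coordinates were taken from them. Each matrix also holds empty droplets. Kept cells were barcodes in which 200 genes or more were detected and mitochondrial UMIs made up no more than 20%. UMIs were summed per lineage and library and scaled to CPM. Ratios carry exact conditional binomial 95% intervals and shares exact Clopper-Pearson intervals, and PCR copies were already collapsed by UMI. A log2 ratio with no counts in a library uses a floor of 3 counts. Mixed barcodes were T or NK cells past the C1q or the Chil3 and F13a1 threshold, and C1q macrophages or monocytes with an Ncr1 UMI. Empty droplets were barcodes of 10 to 100 UMIs. Doublets were not removed.

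The lineage rule, the 22 gene lists and the 10 marker lists were chosen with earlier results of these data known. A gene moved in 1 lineage only when it was measured in all 4 and was under 1.5-fold in the other 3. Named genes were all those moved in all 4 lineages, for each lineage and direction the 4 moved only there with the largest gap to the nearest other lineage, the 2 with the largest log2 ratio among genes measured in that lineage alone, genes that moved in opposite directions, and list members; mitochondrial, ribosomal, antigen receptor, hemoglobin, sex-linked and gating genes and unnamed gene models were left out of this rule, and Trac and Gm47283 are given outside it, Trac as a marker check and Gm47283 as a member of small counts. The scripts were tested on simulated data. In all, 15 alternatives were run, 11 of them planned and 4 added after seeing the data. Promoters came from RefSeq. Python 3.11.15, numpy 2.4.6, scipy 1.17.1, pandas 2.3.3, scanpy 1.11.5 and matplotlib 3.10.9 were used.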

Additional observations from a re-analysis of the deposited data

Results flagged for a closer look

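A gene is listed here when it was at least 1.5-fold higher in the combination in 1 lineage and at least 1.5-fold lower in another. With 1 library per group the difference between the lineages was not tested. Ccl3 had a log2 ratio of 1.40 in T cells (188.5 and 496.9 CPM) and of -0.94 in monocytes (92.38 and 48.24 CPM), and among kept cells in none of the lineages it was at 241.9 and 126.1 CPM. Areg, which encodes the epidermal growth factor receptor ligand amphiregulin, had log2 ratios of 0.76 in T cells (202.3 and 342.6 CPM) and -1.05 in monocytes (58.62 and 28.39 CPM). Hspa1a had 1.08 in C1q macrophages and -0.71 in monocytes. In monocytes Ccl3, Areg and Hspa1a reached the minimum only in the library other than the combination. With the minimum on the mean of both libraries, chosen after seeing the data, 0 of 8 measured heat shock genes were lower in monocytes. Hspa1a would then not be listed here.

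The other pair consists of myeloid genes that went down in T cells and up in NK cells. Alox5ap, which serves leukotriene synthesis, had log2 ratios of -0.70 in T cells (51.16 and 31.49 CPM) and 0.67 in NK cells (32.6 and 51.95 CPM), against 1445 and 1305 CPM in monocytes. Alox5ap reached the minimum in NK cells only in the combination, and in T cells only in the other library. Clec7a, the beta-glucan receptor dectin-1, had -0.77 in T cells and 0.59 in NK cells. Without mixed barcodes the NK cell log2 ratio was 0.19 for Alox5ap and -0.28 for Clec7a.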

How the results depend on the processing

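No paired analysis was possible because each group is 1 library. The planned removal of doublets called by Scrublet was not run, since it called 0 cells in both libraries. Of the 160 log2 ratios of the 5 shared genes over lineages and alternatives, all 160 were above 0 and 8 fell below 1.5-fold, with a range from 0.41 to 1.63. These genes were chosen for ratios of at least 1.5-fold, and the alternatives reuse the same UMIs. Values above 0 were thus nearly fixed in advance and are not further evidence. Some of the 160 values belong to genes under the minimum in that setting. Counts follow in the order higher in all 4, lower in all 4, and moved only in T cells, NK cells, C1q macrophages and monocytes, each where it moved over 1.5 times. A 2-fold threshold gave 0 higher, and 2, 28, 0 and 7 moved only in T cells, NK cells, C1q macrophages and monocytes. A lower threshold of 0.32 on the log2 scale, chosen after seeing the data, gave 25 higher and 5 lower, and 87, 359, 15 and 75. A minimum of 20 CPM gave 9 higher, and 26, 264, 3 and 59, and a minimum of 100 CPM gave 0 higher, and 45, 0 and 7 in NK cells, C1q macrophages and monocytes. Requiring under 1.2-fold elsewhere gave 1, 33, 0 and 5. TMM scaling gave 4 higher in all 4, without Gbp5, 1 lower, Gm47283, and 0 in C1q macrophages, and median centring gave 0 there. Without mixed barcodes 68 moved only in NK cells and 2 in C1q macrophages, and without the 10% of cells with the highest doublet scores, also chosen after seeing the data, 73 and 2; in both settings Ccl5, Gbp2, Gbp5 and Igtp were higher in all 4 and Iigp1 and Gbp2b were not. Without cycling cells 2 genes were higher in all 4 (Iigp1 and Gbp2) and 1 lower, Cxcl2, with 5 in T cells and 0 in C1q macrophages. Subtracting free RNA gave 2 in C1q macrophages, and Lars2 in place of Iigp1 among the 5 higher in all 4. The mean CPM per cell gave 2 higher in all 4 (Gbp5 and Marchf3), 2 in C1q macrophages and 32 in monocytes. A minimum on the mean of both libraries, chosen after seeing the data, gave 3 higher in all 4 (Gbp2, Gbp5 and Igtp) and 0 in C1q macrophages. Among genes named other than as list members, the log2 ratios that reversed were Clec7a in NK cells without mixed barcodes (-0.28) and, without cycling cells, Esco2 (0.60) and Plk1 (0.69) in T cells, Ifitm1 in NK cells (0.45) and Psip1 in monocytes (0.25). List members were not followed one by one, and of them Fabp5 in NK cells turned without mixed barcodes (-0.61). The causes were not tested. Depth limits NK cells and monocytes most, at 4877056 and 4827757 UMIs in the 10/2-Trikine library.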

Other observations

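In monocytes Gzmc, the granzyme C gene, was at 93.42 CPM in the 10/2-Trikine library and 1.616 CPM in the combination, and it was picked out after its value was seen. Gzmc passed the minimum through the 10/2-Trikine library alone. Spp1, the osteopontin gene, was lower in both lymphocyte lineages, at 59.66 and 30.58 CPM in T cells and 360.7 and 219.8 CPM in NK cells, and Fabp5, a fatty acid binding protein, was at 372.0 and 659.2 CPM in monocytes and 279.2 and 186.6 CPM in T cells, where it did not pass the threshold. In NK cells Fabp5 was at 88.99 and 112.4 CPM, and without mixed barcodes it was at 78.86 and 51.54 CPM, a log2 ratio of -0.61 against 0.84 in monocytes. Cxcl13, a B cell chemoattractant, was at 14.15 and 121.5 CPM in NK cells and 24.84 and 51.12 CPM in T cells, and among T cells it had a ratio of 3.36 in those with Cd8 and 0.784 in those with Cd4. In NK and T cells Cxcl13 passed the minimum through the combination alone. Ccl24, an eosinophil chemoattractant, was at 87.41 and 175.2 CPM in monocytes and 128.8 and 136.4 CPM in C1q macrophages.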
